A study of Rattus norvegicus with 44 samples.

Results

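At postnatal day (PND) 21 the kidney cortex of rats labelled homozygous (Homo) at Xdh carried high RNA levels of tubule injury, acute phase, antimicrobial and immune cell genes, and low levels of the transport and metabolic genes of the proximal tubule, thick ascending limb and collecting duct, when set against rats labelled wild type (WT). This comparison of 3 Homo with 3 WT libraries is described here across 14262 genes, those with at least 1 FPKM (fragments per kilobase of gene and per unit of library depth) in 3 or more of the 6 libraries, out of 32545 genes in the table. Each library carries 1 animal number, and all animals were male pups whose kidney cortex was taken. The title of Homo replicate 1 at PND21 begins with LD where all others begin with LDP, and its number occurs again in a Het library of PND5. The series holds 44 libraries from PND0, PND5, PND15 and PND21, and those of 4 Homo and 4 WT pups at PND15 and of 4 heterozygous (Het) pups at PND21 are also used below. No treatment is named, and the kind of Xdh allele and the strain are not given in the sources used here. Whole litters were collected, and which pups shared a litter is not stated. The p-values therefore measure the spread between single animals only, over all the libraries in a test.

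Xanthine dehydrogenase carries out late steps of purine breakdown, from hypoxanthine to xanthine and from xanthine to urate. In its oxidase form the same enzyme passes electrons to oxygen and releases superoxide and hydrogen peroxide. The kidney of the rat finishes its nephrons after birth, and in the weeks that follow the tubule segments take on the transporters, channels and enzymes of the adult organ. Injured tubule cells are known to lose those products and to switch on a set of surface, secreted and keratin genes, of which Havcr1 (kidney injury molecule 1) and Lcn2 (lipocalin 2) are used as markers of kidney injury.

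The reads counted on genes in the 6 libraries ranged from 13568582 to 17425473. Cortex markers were present in all 6, among them Lrp2, Slc34a1, Slc5a2, Umod, Slc12a1, Slc12a3, Aqp2 and Nphs1, whose values are given below. Of genes that mark neighbouring tissue, 0 of 6 tested adrenal genes, 1 of 3 skeletal muscle genes (0 without Homo replicate 1, 2 with voom) and 1 of 9 liver genes (2 with TPM or without WT replicate 3, 3 with voom) passed the test used below, and albumin (Alb) stood at 0.0622 to 0.184 FPKM in Homo and 0.0394 to 0.369 in WT. The Homo libraries were not alike. Replicate 1 differed from replicates 2 and 3 with a chi-square per degree of freedom of 24.7 and 27.3, against 7.93 between replicates 2 and 3 and 8.45 to 16.2 among the WT libraries. Mitochondrially encoded reads made up 7.25 ± 0.274% of reads in Homo (SD, n = 3) and 10.7 ± 0.544% in WT (n = 3), and the summed FPKM of a library was 580066 ± 7681 in Homo and 663859 ± 37126 in WT.

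Xdh itself (ENSRNOG00000007081, chromosome 6, 25149235 to 25211494, minus strand in the authors' table, of a build not given in the sources used here) read 22.3, 24.9 and 25.4 FPKM in the WT libraries and 13.5, 16.6 and 18.0 in the Homo libraries. All Homo values lay below all WT values, and the mean of Homo was 66.3% of that of WT. The difference was -0.57 ± 0.65 on the log2(FPKM + 1) scale (SE; limma adjusted p = 0.549), with the spread estimated over all 44 libraries. Fitted to the PND21 libraries alone or to these 6 alone, it had a limma adjusted p of 0.032 and 0.011. The two-sided exact permutation test gave p = 0.1, the smallest that 3 against 3 libraries allow. The 4 Het libraries read 17.9, 9.70, 12.2 and 13.002 FPKM, a mean of 54.5% of WT, so the RNA level of Xdh places the Homo libraries below WT and not below Het. A transcript level does not show whether the allele makes an enzyme.

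Each gene was tested with limma on log2(FPKM + 1), with its spread, and so each SE, estimated over all 44 libraries. A gene rose or fell when its level was higher or lower in Homo than in WT at a Benjamini-Hochberg adjusted p under 0.05. Rises and falls are ranked on that log2 scale. Among the genes kept, 2747 rose and 2761 fell, and in 5303 of these 5508 the Homo and WT libraries did not overlap, as in 7320 (51.3%) of all genes kept. Of all 16283 genes tested in the series, 17.6% rose and 17.6% fell, which is the background for the counts below that name no other setting. The gene lists were chosen with earlier results of these data known, so their counts are a description and not an independent test against that background. List counts given with TPM or voom belong beside the totals of those settings, given next, out of the same 16283 genes. Large rises outnumbered large falls: 884 genes rose and 548 fell by at least 1 log2 unit, and 58 rose and 5 fell by at least 3. The balance of the directions depended on the scaling. With every library brought to the same summed FPKM (TPM), which moved the median difference of all genes by 0.157 log2, 74.7% of the calls were rises (4743 higher, 1609 lower), and with voom on recovered reads 69.0% were (4069 higher, 1824 lower). All 2747 rises passed again with TPM, as did 1543 of the 2761 falls, and none turned direction.

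**Figure D1:**
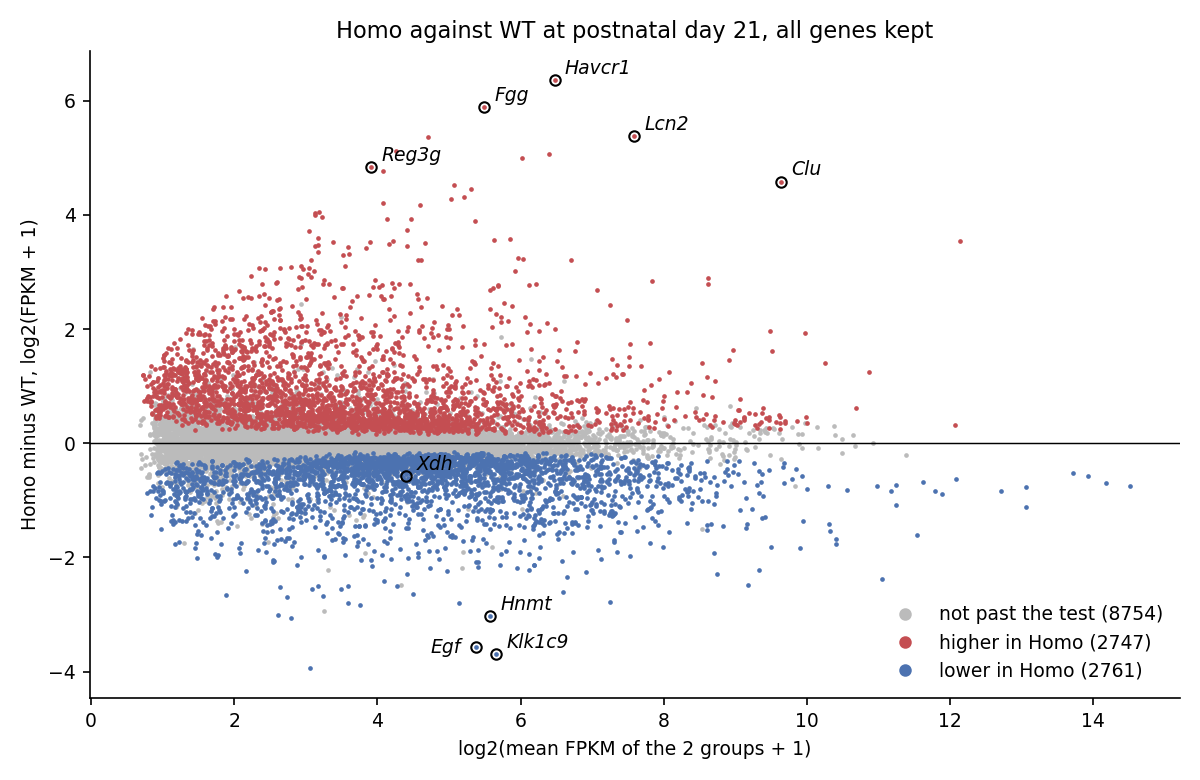
Each point is 1 of the 14262 genes kept; the horizontal axis is its mean level in the 6 libraries on a log2 scale and the vertical axis the Homo minus WT difference in log2(FPKM + 1). Rises (2747, red) reach above 6 log2 units and falls (2761, blue) end near -4, with circles around genes named in the text.

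The rule kept genes through either group. At least 1 FPKM was reached in all 6 libraries by 12661 genes, in the 3 Homo and no WT library by 333, and in the 3 WT and no Homo library by 106. Hist1h2bb and Chrne, just inside the rule, had a third-highest value of 1.0025 FPKM each, and Pfkfb1 and Fsbp, just outside, had 0.9991 each. By kind of gene, 40% of the 13293 protein-coding genes kept passed the test (2664 up, 2657 down). Among 197 lincRNA genes 41.6% did, with 20 up and 62 down, whereas 5.52% of 181 snoRNA genes and 9.62% of 156 miRNA genes did. The libraries are poly-A, and whether reads on these short RNA genes come from precursors or hosts was not tested.

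Havcr1 is a phosphatidylserine receptor with which injured proximal tubule cells take up dying cells. On the log2(FPKM + 1) scale it showed the largest rise of any gene kept with a symbol and a mean of at least 5 FPKM. It read 0.805, 1.46 and 0.916 FPKM in WT, 0.728, 1.32, 0.722 and 0.956 in Het and 255, 128 and 141 in Homo. The lowest Homo library thus stood far above every WT and Het library, and Homo replicate 1 was the highest of all. The ratio of the means was 165, below those of Mmp7 (830.5), Il19 (205) and Fgg (175). The difference for Havcr1 was 6.36 ± 0.26 log2 (SE, n = 3 and 3; limma adjusted p = 6.5e-20). The gene lies at chromosome 10, 31813814 to 31848379, plus strand in the table's coordinates (ENSRNOG00000007243).

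Lcn2, an iron-siderophore binding protein, read 9.40, 5.24 and 9.53 FPKM in WT and 494, 334 and 292 in Homo, 46.3-fold higher (5.37 ± 0.31 log2; limma adjusted p = 1.02e-15). Clu, clusterin, a secreted chaperone, was the most abundant of the large rises, with 63.8, 63.98 and 59.6 FPKM in WT and 1349, 1425 and 1811 in Homo. In contrast to Havcr1 and Lcn2, its highest Homo value was in replicate 3. Mmp7, matrilysin, a metalloproteinase of injured epithelium, had 2 reads in all WT libraries together and 49.6, 30.5 and 28.8 FPKM in Homo, a ratio of 830.5 with a 95% interval of 224 to 6685 that covers counting error only. Sfn, the epithelial 14-3-3 protein stratifin, went from 2.56 to 5.13 FPKM to 146 to 178. The 12 largest differences in each direction were chosen among genes whose groups did not overlap, so for them the separation is part of the choice. These 5 genes are among them, as are others below, such as Fgg, Reg3g, Egf and Hnmt.

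Of 30 tested genes of the tubule injury list, which holds genes switched on in injured tubule cells, 29 rose and none fell, with a median difference of 2.12 log2 against 0.00 over all genes tested. Dcdc2, a doublecortin protein of the primary cilium, read 6.24, 5.39 and 5.15 FPKM in WT and 40.1, 38.7 and 39.2 in Homo (2.62 ± 0.15 log2; limma adjusted p = 1.56e-15). The summed FPKM of the list was 608% to 734% of the WT mean in the Homo libraries and 86.1% to 130.7% in the Het libraries. Over all 44 libraries, the 5 genes with a mean of at least 5 FPKM over the 6 libraries whose log2 levels followed Havcr1 most closely were Il24 (Pearson r = 0.985), Mmp7 (0.982), Aoc1 (0.981), Clu (0.975) and Il19 (0.975). The libraries share differences of age and genotype, so these values describe likeness only and carry no test.

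**Figure D2:**
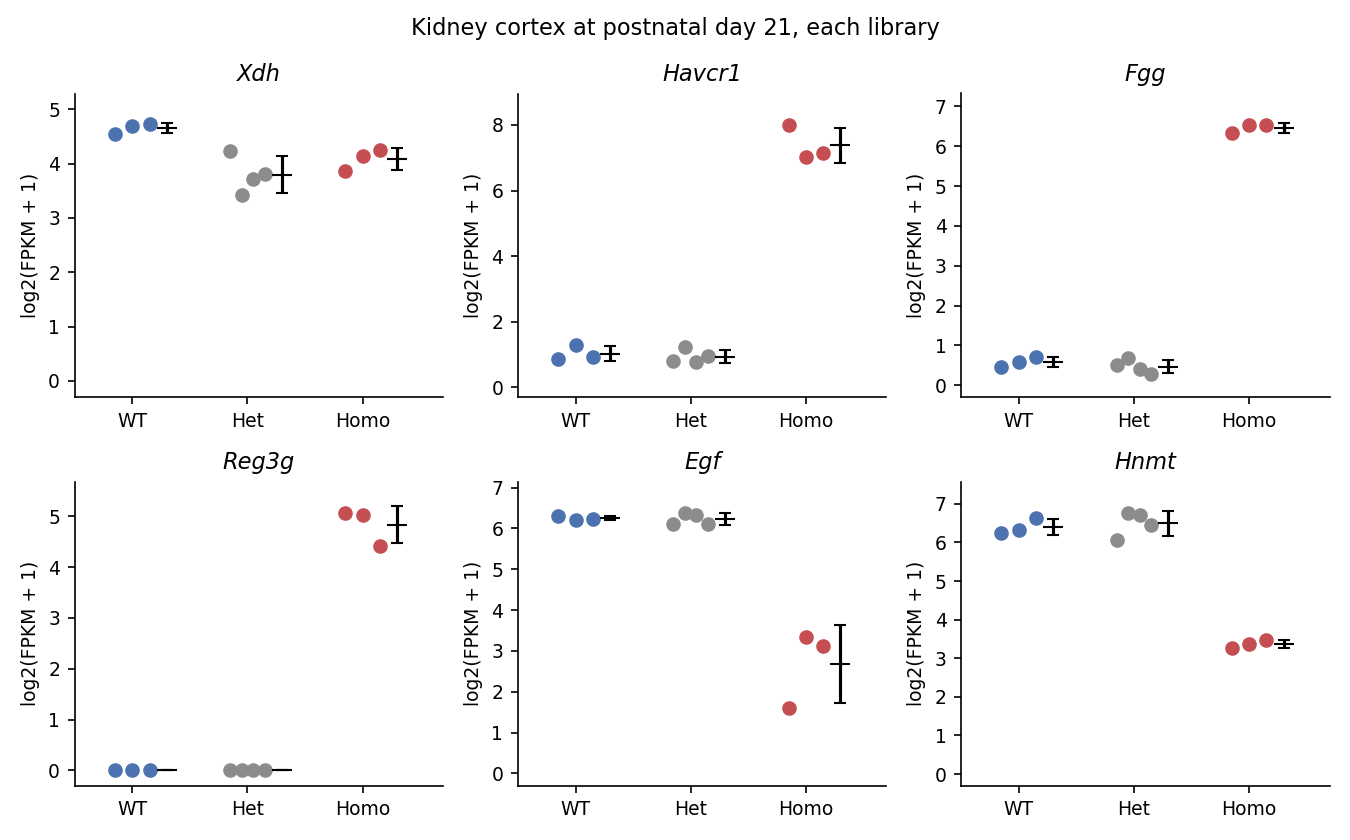
Levels of Xdh, Havcr1, Fgg, Reg3g, Egf and Hnmt in log2(FPKM + 1) in each WT, Het and Homo library at PND21; points are libraries, and black bars give the mean and SD of each group. Homo stands apart from WT and Het for all genes but Xdh, and Homo replicate 1, the leftmost red point, is the highest for Havcr1 and the lowest for Egf.

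Fibrinogen genes rose together in the cortex. The liver makes the fibrinogen of plasma from Fga, Fgb and Fgg, which lie side by side and encode its 3 chains. Fgg (ENSRNOG00000025074, chromosome 2, 181987217 to 181994514, plus strand) read 0.375, 0.495 and 0.633 FPKM in WT, 0.415, 0.594, 0.320 and 0.211 in Het and 78.9, 91.9 and 91.8 in Homo, a ratio of 175 (5.88 ± 0.29 log2; limma adjusted p = 1.67e-17). Fgb read 2.29, 2.56 and 2.81 FPKM in WT and 60.4, 74.8 and 73.4 in Homo, and Fga 9.51, 10.4 and 12.3 and 82.2, 123.05 and 131.2. All Homo libraries lay above all WT libraries for each chain. The rises were 4.31 ± 0.22 log2 for Fgb and 3.25 ± 0.29 for Fga, so the chain with the lowest level in WT, Fgg, had the largest. The summed FPKM of the liver list was 156% to 190.3% of the WT mean in Homo and 96.6% to 103% in WT, most of it from Tf, transferrin, the 1 gene of the list that rose, at 38.0, 40.0 and 39.0 FPKM in WT and 75.6, 66.2 and 61.6 in Homo. Among the defining liver genes Alb read 0.0932, 0.369 and 0.0394 FPKM in WT and 0.184, 0.0622 and 0.0927 in Homo, Apoa1 0.362, 0.687 and 0.0916 and 0.342, 0.362 and 0.288, and Ttr 0, 0.109 and 0 and 0, 0.0917 and 0. The part of liver RNA in the fibrinogen values was not tested.

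Other acute phase genes went the same way. Of 16 tested genes of that list, 14 rose and 1 fell (0 with TPM or voom, or without Homo replicate 1 or WT replicate 2 or 3), with a median of 1.65 log2. Socs3, which is induced by STAT3 and shuts off its receptors, read 3.13, 2.66 and 3.02 FPKM in WT and 108.2, 153 and 114 in Homo (4.99 ± 0.30 log2; limma adjusted p = 3.17e-15). Il6, the cytokine that drives the acute phase in liver, had no read in any WT or Het library and 1.31, 1.35 and 1.22 FPKM in Homo, at least 18.5-fold higher against 3 reads over the WT group. A2m, the protease inhibitor alpha-2-macroglobulin, had 2 reads in WT and 2.39, 1.80 and 3.23 FPKM in Homo. Il19 and Il24, neighbouring cytokine genes of the IL-10 family that signal through STAT3, read 0.122, 0.145 and 0.463 and 0.444, 0.132 and 0 FPKM in WT, and 56.7, 45.2 and 47.96 and 30.4, 25.4 and 39.0 in Homo. Their differences were 5.36 ± 0.29 and 4.77 ± 0.22 log2.

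STAT proteins bind paired TTC and GAA half-sites, so the 250 bases before the start of these genes were searched for TTCNNNGAA, which reads the same on both strands. The sequences are RefSeq's for build GRCr8, another source than the coordinates of the authors' table, and 11 of the 12 largest rises, 7 of the 12 largest falls and 15 of the 21 acute phase genes written in the list were matched. The motif occurred in 7.52% of 27457 promoters, in 2 of the 11 rises (Il19 and Il24), in 0 of the 7 falls and in 4 of the 15 acute phase genes (Fga, Fgb, Serpina3n and Itih4). The 5 promoters below are shown since their genes form 2 neighbouring groups that rose together. They are written 5′ to 3′ on the strand of the gene, up to the base before its start, and capitals mark TTCNNNGAA.
Fga promoter (chr2:170671919-170672168, plus strand): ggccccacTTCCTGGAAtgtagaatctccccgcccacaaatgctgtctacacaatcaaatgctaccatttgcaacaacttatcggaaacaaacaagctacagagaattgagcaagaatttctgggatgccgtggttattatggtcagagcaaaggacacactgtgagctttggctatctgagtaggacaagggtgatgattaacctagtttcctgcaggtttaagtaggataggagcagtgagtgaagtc
Fgb promoter (chr2:170700876-170701125, minus strand): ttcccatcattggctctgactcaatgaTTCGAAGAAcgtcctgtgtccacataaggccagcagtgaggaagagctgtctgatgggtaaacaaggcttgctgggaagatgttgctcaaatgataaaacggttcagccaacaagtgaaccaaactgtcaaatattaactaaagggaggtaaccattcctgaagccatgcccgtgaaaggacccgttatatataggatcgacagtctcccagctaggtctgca
Fgg promoter (chr2:170652833-170653082, plus strand): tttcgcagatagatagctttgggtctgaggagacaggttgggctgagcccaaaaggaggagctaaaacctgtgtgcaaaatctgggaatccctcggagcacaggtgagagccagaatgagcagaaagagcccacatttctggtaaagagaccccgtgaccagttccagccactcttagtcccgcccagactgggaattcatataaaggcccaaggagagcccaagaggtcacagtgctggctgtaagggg
Il19 promoter (chr13:44958715-44958964, minus strand): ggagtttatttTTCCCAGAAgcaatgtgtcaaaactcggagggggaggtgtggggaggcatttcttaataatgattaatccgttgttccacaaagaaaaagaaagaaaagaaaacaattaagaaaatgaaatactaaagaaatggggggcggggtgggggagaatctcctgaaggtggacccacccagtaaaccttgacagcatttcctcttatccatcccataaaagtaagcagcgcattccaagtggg
Il24 promoter (chr13:44910761-44911010, minus strand): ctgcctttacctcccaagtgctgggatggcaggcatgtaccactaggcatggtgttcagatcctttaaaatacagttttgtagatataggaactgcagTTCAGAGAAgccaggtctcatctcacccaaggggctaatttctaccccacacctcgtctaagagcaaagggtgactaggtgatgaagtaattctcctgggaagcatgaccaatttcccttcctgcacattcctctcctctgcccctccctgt

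The match began 242 bases before the start in Fga, 223 in Fgb, 239 in Il19 and 152 in Il24. Fgg, with the largest rise of the 3 fibrinogen genes, has none in this window. The AP-1 motif TGANTCA, found in 6.36% of all promoters on either strand, occurred in 3 of the 11 rises (Gpnmb, Sfn and Mmp7) and 1 of the 7 falls (Klk1c2), and the NF-kB motif GGANNTTCC, found in 3.33%, in 1 of the rises (Lcn2) and none of the falls. Also searched were the motifs of C/EBP (TTGCNNCAA), HNF1 (TTAATNATT) and HNF4 (CAAAGTCCA) and the antioxidant response element (TGACNNNGC). They occurred in 1.74%, 1.34%, 0.331% and 10.2% of all promoters. HNF1 matched 1 of the 11 rises (Il19) and none of the 7 falls, and the rest matched none of either. Of the 15 acute phase genes, AP-1 matched 3 (Osmr, Fgb and Orm1). C/EBP (Fga), NF-kB (Il6) and the antioxidant response element (Hpx) matched 1 each, and HNF1 and HNF4 none. The groups are too small to compare, and a match is a run of letters, not a bound site.

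REG lectins and antimicrobial proteins rose, some of them from no read in WT. Reg3g, a secreted lectin that kills Gram-positive bacteria at gut surfaces (ENSRNOG00000006579, chromosome 4, 109529679 to 109532234, minus strand), had no read in the 3 WT or the 4 Het libraries and 32.5, 31.4 and 20.4 FPKM in Homo, 956 reads in all. This is at least 297-fold higher against 3 reads over the WT group (4.84 ± 0.19 log2; limma adjusted p = 3.08e-20). Reg3b behaved alike, with no WT read and 13.03, 19.4 and 14.2 FPKM in Homo, at least 166-fold higher. The Reg3 genes are close paralogs, and reads that fit more than 1 of them could be split by the counting. Slpi, an inhibitor of neutrophil elastase, read 0.751, 0.982 and 0.476 FPKM in WT and 35.8, 31.2 and 25.8 in Homo. Lyz2, macrophage lysozyme, went from 72.9, 88.7 and 114 FPKM to 856, 641 and 569. In all, 10 of 12 tested genes of the list rose and none fell (1 without Homo replicate 2 or WT replicate 1; median 2.64 log2).

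Complement genes of several steps rose: 18 of 22 tested genes, with 2 that fell (0 with TPM or voom, or without Homo replicate 1 or WT replicate 2 or 3, and 1 without Homo replicate 2 or WT replicate 1) and a median of 1.94 log2. C3, the protein on which the pathways meet, read 0.917, 1.05 and 1.303 FPKM in WT and 42.5, 31.2 and 21.9 in Homo (3.93 ± 0.29 log2; limma adjusted p = 3.37e-13). Its inactivator Cfi read 1.51, 1.32 and 1.83 and 45.4, 43.9 and 45.5. C4b, which feeds the classical pathway, read 2.26, 3.58 and 0.444 FPKM in WT and 61.1, 64.1 and 64.1 in Homo. The 3 Homo values of Cfi and of C4b were close together, while C3 was highest in Homo replicate 1 and lowest in replicate 3. C4b has a near-identical copy, C4a, so its share of their reads is uncertain. C1qa and C1qb, the recognition subunits made mainly by macrophages, rose by 2.77 ± 0.22 and 2.77 ± 0.27 log2.

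Genes of immune cells rose in the lists of macrophages, lymphocytes and neutrophils. All 23 tested macrophage and dendritic cell genes rose, with a median of 2.23 log2. Csf1r, the receptor that keeps macrophages alive, read 11.3, 10.95 and 11.5 FPKM in WT and 64.1, 52.2 and 54.9 in Homo (2.24 ± 0.20 log2; limma adjusted p = 7.23e-11), and Cd68, a lysosomal protein of macrophages, 2.80, 4.62 and 3.68 and 35.9, 26.3 and 20.2. Gpnmb, a membrane glycoprotein of lipid-laden and lysosome-rich macrophages, had the largest rise of the list, from 1.98 to 3.15 FPKM to 55.4 to 103.99. Homo replicate 1 had the highest value of Cd68, Gpnmb and Csf1r. In bulk tissue more cells of a type and more RNA per cell cannot be told apart, nor, for the falls below, fewer cells and less RNA per cell.

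Lymphocyte genes rose in 12 of 13 tested cases, with none that fell and a median of 1.07 log2. Cd3e, a subunit of the T cell receptor complex, read 0.3003, 0.255 and 0.217 FPKM in WT and 4.66, 3.39 and 3.20 in Homo. The groups stood clear of each other. Cd4, which rat macrophages also carry, read 8.05, 5.94 and 6.52 and 43.0, 40.1 and 36.1. Of 8 tested neutrophil and mast cell genes 6 rose and 1 fell (0 with TPM or voom, or without Homo replicate 1 or 3 or WT replicate 1 or 2). S100a9, which forms calprotectin of neutrophils with S100a8, rose from 1.83 to 2.46 FPKM to 50.5 to 68.6, and Csf3r, the receptor for granulocyte colony-stimulating factor, from 0.345 to 0.577 to 6.74 to 9.60. Mpo, the granule peroxidase of immature neutrophils, read 0, 0.109 and 0.434 FPKM in Homo and 0.306, 2.02 and 0 in WT and did not pass.

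Cytokines and chemokines rose in 20 of 27 tested cases and fell in 1 (median 1.25 log2). Il1b, the main inflammasome product, read 0.507, 0.438 and 0.992 FPKM in WT and 24.4, 16.4 and 13.8 in Homo, and its antagonist Il1rn 0.599, 0.374 and 0.839 and 19.2, 14.97 and 12.1. Cxcl1, which draws neutrophils, rose by 3.60 ± 0.23 log2 (limma adjusted p = 1.51e-14) and Lif, a cytokine of the IL-6 family, by 2.89 ± 0.17 (limma adjusted p = 2.47e-15). Tnf was near 0 in both groups, with 7 reads in Homo and 5 in WT, and was not tested. Targets of NF-kB rose in 15 of 18 cases with none that fell (1 without WT replicate 2; median 1.14 log2). Among the rises was Birc3, a ubiquitin ligase of the inhibitor of apoptosis family (1.19, 1.59 and 1.33 FPKM in WT, 28.5, 26.4 and 24.3 in Homo). Of 29 tested interferon and antigen presentation genes 21 rose and 1 fell (median 0.85 log2). Within that list the class II gene RT1-Db1 (1.76 ± 0.20 log2), whose family shares reads, rose, and the interferon target Isg15 did not pass (0.32 ± 0.15 log2; limma adjusted p = 0.0878).

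**Figure D3:**
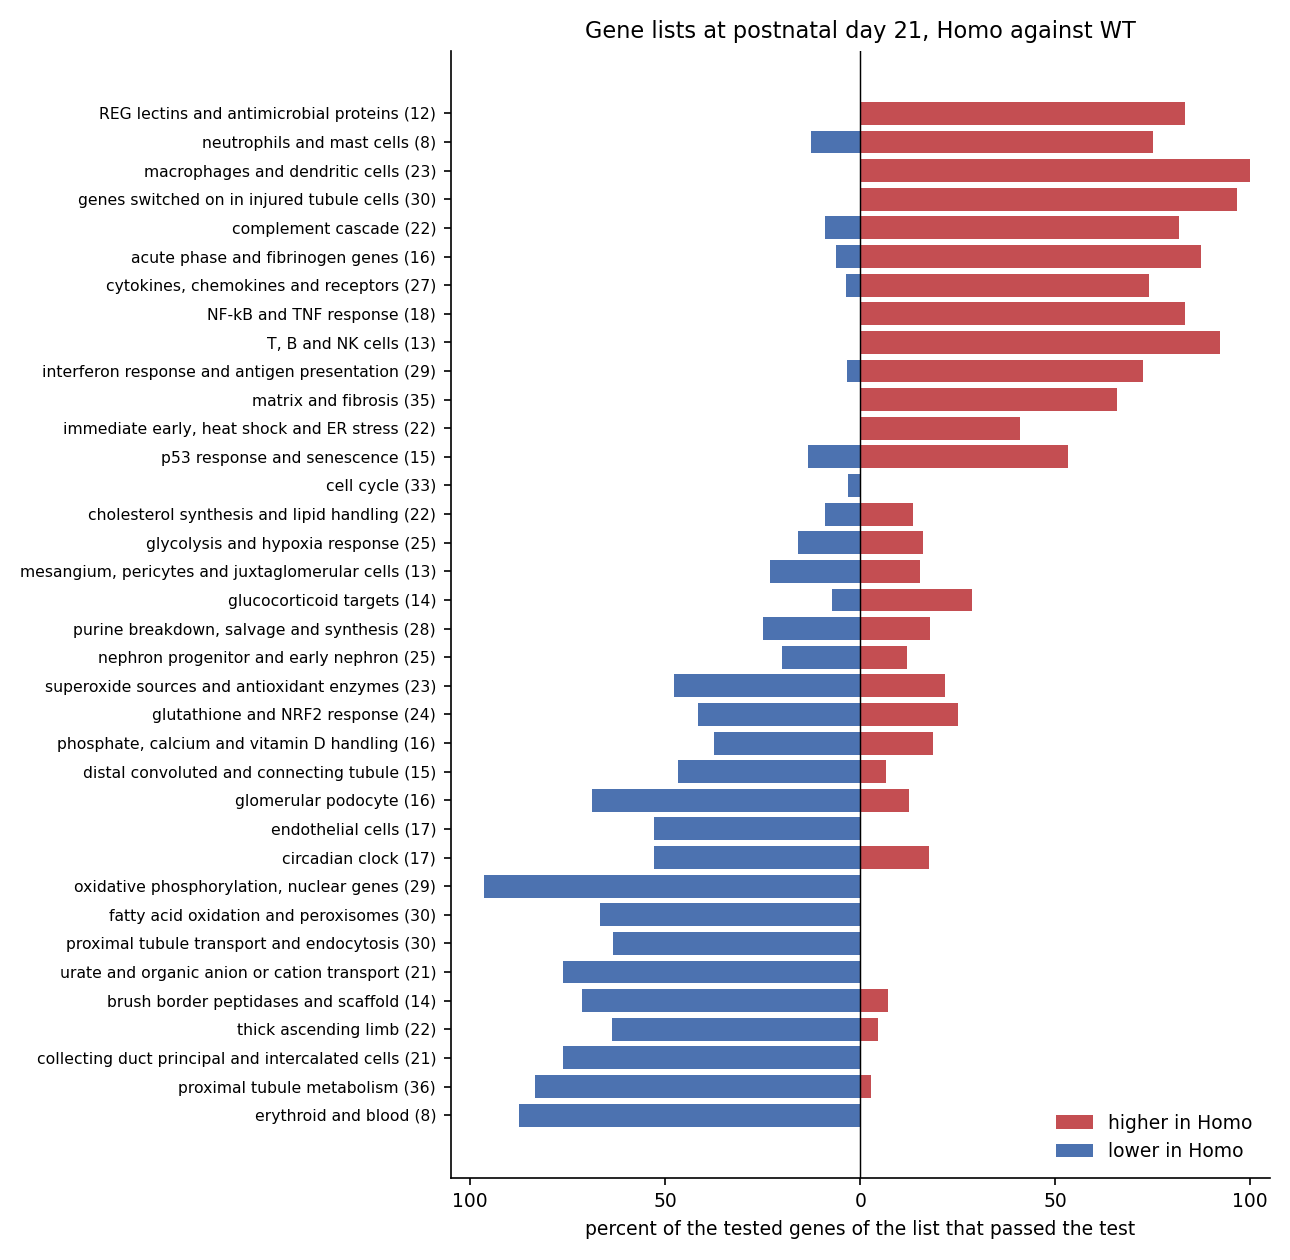
For each gene list, with the number of tested genes in brackets, the bar to the right gives the percent of them that rose in Homo and the bar to the left the percent that fell; lists are ordered by their median log2 difference. Macrophage and injury lists are nearly all to the right, and oxidative phosphorylation and proximal metabolism nearly all to the left, over a background of 17.6% in each direction. The lists were chosen with earlier results of these data known.

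Matrix genes rose in part. Of 35 tested genes 23 rose and none fell, with a median of 0.81 log2. Col3a1, the fibrillar collagen III chain, read 317, 304 and 192 FPKM in WT and 600.1, 518 and 573 in Homo and rose by 1.08 ± 0.29 log2. The collagen I chains did not pass: Col1a1 read 245, 236 and 169 FPKM in WT and 317, 273 and 289 in Homo (limma adjusted p = 0.273), and Col1a2 90.3, 59.5 and 71.4 and 102, 54.2 and 84.05 (limma adjusted p = 0.881). Acta2, smooth muscle actin, also a marker of myofibroblasts, read 44.2, 46.6 and 52.3 FPKM and 163, 115 and 120.6 and rose by 1.44 ± 0.29 log2, with 3 of 10 tested smooth muscle genes up. Myh11, which marks smooth muscle and not myofibroblasts, did not pass (0.33 ± 0.33 log2; limma adjusted p = 0.494). Of 13 mesangium, pericyte and juxtaglomerular cell genes 2 rose and 3 fell (3 and 1 with TPM). Without Homo replicate 1 or WT replicate 1 or 2 only 1 fell, and without Homo replicate 3 or WT replicate 2 or 3 only 1 rose.

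Genes of the proximal tubule fell. Of 36 tested metabolic genes of this segment 30 fell and 1 rose, with a median of -1.38 log2. Hnmt, which methylates histamine (ENSRNOG00000005223, chromosome 3, 904765 to 937102, minus strand), read 74.6, 78.7 and 98.1 FPKM in WT, 66.2, 107, 103 and 85.7 in Het and 8.68, 9.32 and 10.1 in Homo, 8.93-fold lower in Homo (-3.02 ± 0.28 log2; limma adjusted p = 1.19e-10). Its 3 Homo values were close together and clear of all others. Ddc, which makes dopamine in the tubule, read 34.0, 36.9 and 39.1 FPKM in WT and 5.14, 10.8 and 10.6 in Homo, and Fbp1, an enzyme of glucose synthesis, 659.9, 707 and 801 and 186, 433 and 408. For both genes Homo replicate 1 lay well below the other 2 Homo libraries.

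That library set the value of some genes. Pck1, the rate-limiting enzyme of glucose synthesis, read 28.9, 759 and 749 FPKM in Homo against 1008, 1075 and 691 in WT, so replicates 2 and 3 overlapped WT and the difference of -1.82 ± 0.64 log2 (limma adjusted p = 0.0246) rests on replicate 1. Without that library the difference was -0.27 log2 (limma adjusted p = 0.693), and it also did not pass without WT replicate 1 or 2 (0.0642 and 0.0748). Fat cells also express Pck1. In the fat tissue list 1 of 13 genes rose (0 without WT replicate 3) and 1 fell (0 without Homo replicate 1 or WT replicate 1 or 2). Its lowest difference, -1.82 log2, was that of Pck1, so the list is not separate from this gene. The summed list stood at 8.52% of the WT mean in Homo replicate 1 and 77.1% and 84.9% in replicates 2 and 3. In each Homo and WT library but Homo replicate 1, Pck1 made up most of that sum. The part of fat cells in the result was not tested. Over all falls, replicate 1 held the lowest of the 3 Homo values in 70.4% of 2761 genes, and over all rises the highest in 71.4% of 2747. Without it, 4209 of the 5508 calls passed again in the same direction (76.4%), against 82.1% to 90.3% without any other single library.

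**Figure D4:**
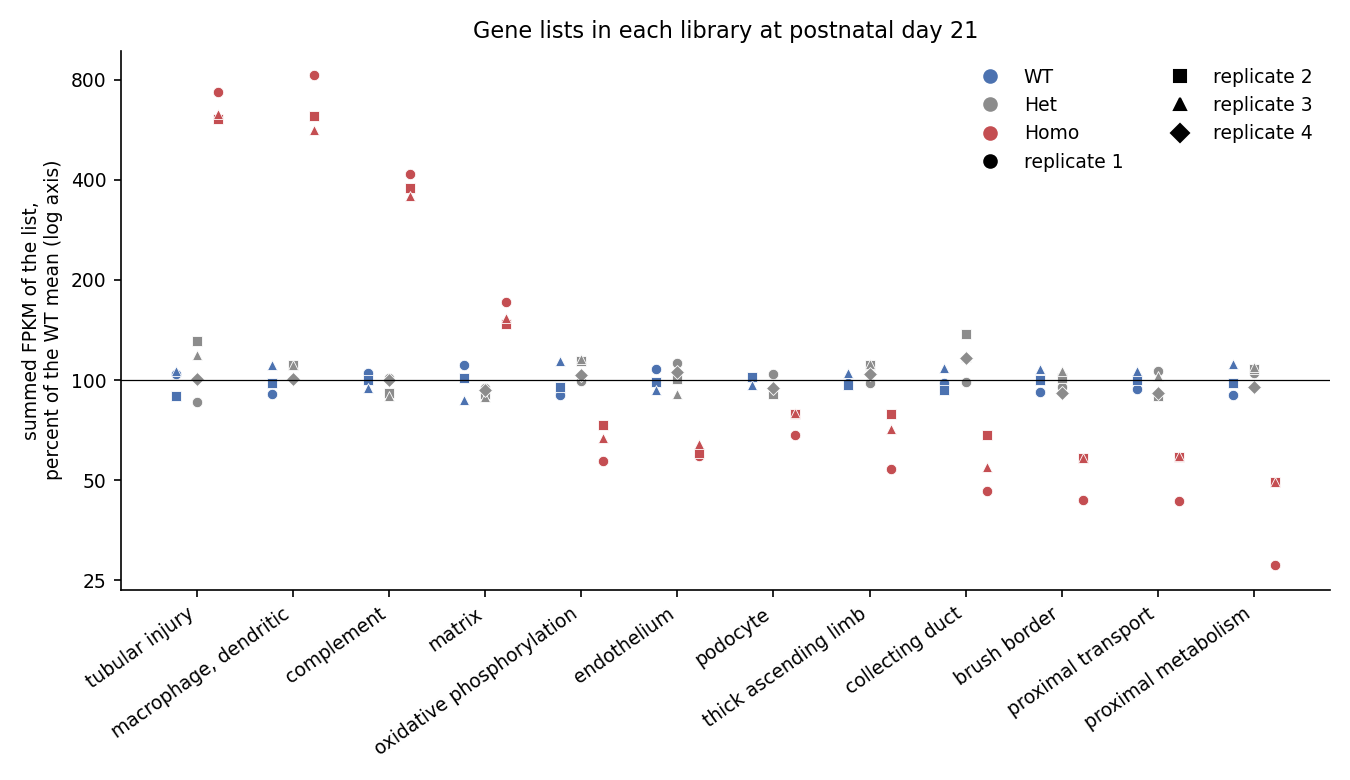
Summed FPKM of 12 gene lists in each WT, Het and Homo library at PND21, as a percent of the WT mean on a log axis; colours are genotypes and shapes replicates. Homo replicate 1 (circle) is the highest Homo library for the injury, macrophage, complement and matrix lists and the lowest for those of oxidative phosphorylation and the nephron segments.

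Transporters of the proximal tubule fell in 19 of 30 tested cases and rose in none (median -0.71 log2; 18 fell with TPM). Slc34a1, the main phosphate transporter of the brush border, read 1954, 2058 and 2064 FPKM in WT and 341, 881 and 833 in Homo (-1.68 ± 0.22 log2; limma adjusted p = 1.08e-07). Slc3a1, which pairs with a cystine carrier, read 830.3, 962 and 1102 and 355, 383 and 444. Lrp2, megalin, the endocytic receptor for filtered protein, read 244, 276 and 288 FPKM in WT and 121.9, 188 and 178 in Homo (-0.75 ± 0.19 log2), with no overlap. Slc5a2, the glucose carrier of the first segment, fell, with a difference of -0.46 ± 0.13 log2 and did not pass with TPM, with voom or without Homo replicate 1 (limma adjusted p = 0.128, 0.0534 and 0.0719). Brush border genes fell in 10 of 14 cases and rose in 1: Mep1a and Mep1b, the meprin peptidases, fell, with differences of -1.73 ± 0.19 and -2.08 ± 0.26 log2.

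Carriers of urate, the product of Xdh, and of other organic ions fell in 16 of 21 tested cases and rose in none (median -0.72 log2; 13 fell with TPM). Slc22a12, the urate exchanger URAT1, read 191, 191 and 251 FPKM in WT and 94.8, 90.2 and 84.3 in Homo (-1.21 ± 0.24 log2; limma adjusted p = 8.83e-05). Slco1a6, an organic anion carrier with close paralogs, had the largest fall of the list, from 242, 267 and 279 FPKM to 21.9, 44.9 and 53.4. Slc22a13, another urate and nicotinate carrier, read 30.8, 31.4 and 32.0 and 2.24, 5.79 and 7.55. The urate carriers Slc2a9 and Abcg2 fell, with differences of -0.42 ± 0.13 and -0.40 ± 0.13 log2, and neither passed with TPM or voom; Abcg2 also did not pass without Homo replicate 1 or WT replicate 3 (limma adjusted p = 0.052 and 0.0722).

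In the thick ascending limb Egf had the largest fall of any list gene. It encodes the precursor of epidermal growth factor that this segment sheds into urine (ENSRNOG00000053979, chromosome 2, 68820615 to 68895920, plus strand). Egf read 77.9, 73.2 and 73.9 FPKM in WT, 68.1, 81.7, 79.2 and 68.1 in Het and 2.02, 9.16 and 7.65 in Homo, 11.95-fold lower (-3.56 ± 0.32 log2; limma adjusted p = 8.86e-11). Slc12a1, the salt carrier of the segment, read 443, 409 and 376 and 161.4, 272 and 271 FPKM, and Ppp1r1a, a phosphatase inhibitor, 119.6, 99.0 and 132 and 17.7, 32.2 and 29.1. The Homo libraries all lay below those of WT for these 3 genes, with differences of -0.84 ± 0.15 log2 for Slc12a1 and -2.14 ± 0.23 for Ppp1r1a. Umod, uromodulin, the main protein of normal urine, read 1299, 1204 and 1331 FPKM in WT and 441, 1009 and 869 in Homo and fell, with a difference of -0.81 ± 0.31 log2 (limma adjusted p = 0.0408), and passed without Homo replicate 2 or 3. It did not pass with TPM (limma adjusted p = 0.123), nor without Homo replicate 1 (0.346), where its difference was -0.45 log2, or WT replicate 1 (0.0841), 2 (0.0658) or 3 (0.0975). In all, 14 of 22 tested genes of the segment fell and 1 rose (0 without Homo replicate 3 or WT replicate 2; median -0.82 log2).

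In the distal and collecting segments falls were more numerous than rises. Of 15 genes of the distal convoluted and connecting tubule 7 fell and 1 rose (5 and 2 with TPM). Slc12a3, the thiazide-sensitive salt carrier, read 97.3, 116.4 and 92.8 FPKM in WT and 59.0, 73.4 and 56.05 in Homo, and its difference of -0.70 ± 0.27 log2 passed without Homo replicate 2 but not without any other single library (limma adjusted p of 0.0588 to 0.143) or with TPM or voom. Trpv5, the apical calcium channel, went against the list and rose, from 6.15, 8.51 and 8.11 FPKM to 14.4, 25.1 and 31.6 (1.47 ± 0.37 log2; limma adjusted p = 0.00186). Collecting duct genes fell in 16 of 21 cases and rose in none (13 fell with TPM, 12 with voom; median -0.93 log2). Atp6v1b1, a proton pump subunit of the acid-secreting intercalated cells, read 66.3, 72.4 and 66.6 FPKM in WT and 16.0, 32.7 and 24.5 in Homo, and Rhcg, an ammonia channel, 90.6, 98.6 and 97.4 and 34.4, 58.5 and 38.9. Aqp2, the vasopressin-regulated water channel of principal cells, read 129.6, 85.1 and 160.7 FPKM in WT and 50.1, 92.0 and 54.9 in Homo, overlapped and did not pass (limma adjusted p = 0.0959).

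Slc4a1, the anion exchanger of intercalated cells and of red cells, read 70.9, 50.5 and 57.5 FPKM in WT and 3.27, 12.2 and 10.6 in Homo (-2.79 ± 0.31 log2; limma adjusted p = 4.62e-09). Of 8 tested erythroid genes 7 fell (median -1.70 log2). Slc4a1 is itself 1 of these falls, and it is also counted among the collecting duct falls above. The summed erythroid list was 17.04% to 45.9% of the WT mean in Homo and 57.1% to 125.5% in WT. Hbb, whose globin family shares reads, read 2624, 1176 and 2463 FPKM in WT and 566, 354 and 976 in Homo. The part of blood in the value of Slc4a1 was not tested.

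Among glomerular and vessel genes the medians were -0.43 log2 in both lists. Podocyte genes fell in 11 of 16 tested cases and rose in 2, but with TPM 7 fell and 4 rose, and 7 fell without Homo replicate 1. Nphs1, nephrin of the slit diaphragm, read 17.8, 22.3 and 15.8 FPKM in WT and 8.77, 11.5 and 12.1 in Homo (-0.73 ± 0.13 log2), with no overlap. Wt1, which podocytes need throughout life, read 9.84, 11.7 and 9.64 and 8.75, 8.91 and 8.54 and did not pass (limma adjusted p = 0.27). Endothelial genes fell in 9 of 17 cases and rose in none, and in 4 with TPM. Emcn and Plvap, a sialomucin and the diaphragm protein of fenestrated capillaries, fell, with differences of -1.22 ± 0.12 and -1.23 ± 0.15 log2, whereas Cdh5, the junction cadherin of all endothelium, fell, with a difference of -0.44 ± 0.15 log2 and did not pass with TPM or voom, nor without Homo replicate 1 or 2 or WT replicate 1 or 2 (limma adjusted p of 0.0551 to 0.134).

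Genes of oxidative phosphorylation fell. Of 29 tested nuclear genes of that pathway 28 fell and none rose, with a median of -0.57 log2 (27 with TPM and with voom). Atp5b, the catalytic subunit of ATP synthase, read 2341, 2418 and 2848 FPKM in WT and 1295, 1702 and 1543 in Homo (-0.75 ± 0.10 log2; limma adjusted p = 3.96e-07). The 13 mitochondrially encoded protein genes all fell, with a median of -0.73 log2, beside the lower share of mitochondrial reads given above. Fatty acid oxidation genes fell in 20 of 30 cases and rose in none (median -0.59 log2; 16 fell with TPM). Acadm, the medium-chain dehydrogenase, read 265, 265 and 269.5 FPKM in WT and 102, 148.97 and 144 in Homo (-1.03 ± 0.12 log2), and Cpt1a, the gate of the mitochondrial route, read 77.2, 74.5 and 58.1 and 44.1, 60.1 and 58.3 and did not pass (limma adjusted p = 0.0525). Glycolysis and hypoxia genes were split, with 4 up and 4 down of 25 tested (8 and 3 with TPM, 2 down without Homo replicate 1), among them Hk2, the inducible hexokinase (1.35 ± 0.24 log2), and Vegfa, the vessel growth factor (-0.62 ± 0.14 log2).

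Purine genes, the pathway of Xdh, showed no common direction. Of 28 tested, 5 rose and 7 fell (10 and 5 with TPM, 3 rises without WT replicate 2), with a median of -0.03 log2. Gda, guanine deaminase, which turns guanine into xanthine and so feeds Xdh, had the largest difference, from 4.83, 4.32 and 2.28 FPKM in WT to 56.2, 34.1 and 38.9 in Homo (3.21 ± 0.32 log2; limma adjusted p = 5.16e-10). Mocos, which activates the molybdenum cofactor that Xdh needs, read 1.93, 1.94 and 1.69 FPKM in WT and 5.15, 4.36 and 4.19 in Homo. Both genes stood clear of WT in every Homo library. Adk, which salvages adenosine, fell, with a difference of -0.59 ± 0.09 log2 and Entpd5, a nucleotide diphosphatase, by -1.13 ± 0.16. Uox, urate oxidase, which the rat keeps in liver, had 2 reads in Homo and 0 in WT.

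Genes that make and remove superoxide and peroxide went both ways. Of 23 tested, 5 rose (3 without WT replicate 1) and 11 fell (7 and 8 with TPM). Cybb, the catalytic subunit of the phagocyte NADPH oxidase, read 5.70, 5.98 and 5.12 FPKM in WT and 34.0, 27.9 and 27.9 in Homo (2.22 ± 0.23 log2), as its partners Ncf1 and Ncf4 rose by 2.79 ± 0.26 and 1.90 ± 0.21. Phagocytes carry these 3 genes, and the macrophage list above rose with them. Cat, catalase, read 455, 468 and 459 FPKM in WT and 126, 235 and 182 in Homo (-1.39 ± 0.19 log2), and Gpx3, the glutathione peroxidase that the proximal tubule sends to plasma, 11576, 11353 and 12213 and 5136, 5767 and 5392 (-1.11 ± 0.16 log2). In the glutathione list 6 of 24 tested genes rose (3 without Homo replicate 1) and 10 fell. Gclc, the rate-limiting enzyme of glutathione synthesis, read 811, 813 and 1328 FPKM in WT and 179.9, 163 and 171 in Homo (-2.48 ± 0.25 log2; limma adjusted p = 9.67e-10), while Gpx2, the epithelial glutathione peroxidase, rose from 7.15 to 9.55 FPKM to 97.2 to 115.9. Nqo1, a standard NRF2 target, read 8.92, 7.30 and 8.26 and 9.38, 6.43 and 6.24 and did not pass.

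Mineral-handling genes moved in opposite directions. Fgf23, the bone hormone that lowers phosphate uptake in the tubule, had no read in WT or Het and 1.41, 3.40 and 1.35 FPKM in the Homo cortex, 70 reads in all and at least 21.2-fold higher. Kl, klotho, its co-receptor, read 133, 152 and 149.7 FPKM in WT and 37.5, 86.8 and 83.1 in Homo (-1.15 ± 0.21 log2; limma adjusted p = 2.68e-05). With Slc34a1 and Slc34a3 (from 107 to 116.4 FPKM to 25.3 to 55.2) these made up part of 3 rises and 6 falls among 16 tested genes. Trpv6, a calcium channel, rose from 0.530, 0.446 and 0.475 FPKM to 14.6, 13.8 and 18.0 (3.46 ± 0.23 log2).

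Cell cycle genes did not pass in either direction, with 1 exception: 0 of 33 rose and Ccnd1, cyclin D1, fell (-0.70 ± 0.14 log2), although 3 rose with TPM, 1 with voom and 7 with array weights. Mki67, a protein of dividing cells, read 8.84, 10.3 and 8.21 FPKM in WT and 8.16, 11.95 and 10.99 in Homo. Cdkn1a, the p53 target that arrests the cycle, rose from 3.86, 4.66 and 2.17 FPKM to 14.4, 14.5 and 12.2 (1.72 ± 0.21 log2), as 8 of 15 p53 and senescence genes rose (5 without Homo replicate 1) and 2 fell (1 without WT replicate 3). Mdm2, another p53 target, did not pass (-0.07 ± 0.10 log2). Nephron progenitor genes were split (3 up and 5 down of 25, 5 and 3 with TPM, 1 up without WT replicate 3 and 3 down without Homo replicate 1), and Six2, which marks the progenitors, had 0 reads in Homo and 1 in WT.

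Smaller lists gave mixed counts. Of 22 immediate early, heat shock and ER stress genes 9 rose and none fell, with Fos at 0.850, 0.481 and 1.33 FPKM in WT and 10.3, 9.31 and 22.2 in Homo and Atf3 at 1.15, 1.05 and 1.54 and 11.5, 14.0 and 21.7. Among 17 circadian genes 3 rose and 9 fell (4 and 5 with TPM), with Dbp, a clock output factor, at 156, 155 and 125 FPKM in WT and 35.1, 55.2 and 68.001 in Homo. The hour of collection is not given. Glucocorticoid targets rose in 4 of 14 cases (2 without Homo replicate 3) and fell in 1, and Fkbp5 did not pass (0.89 ± 0.53 log2). Cholesterol genes gave 3 rises and 2 falls of 22 (6 and 1 with TPM, 1 fall without Homo replicate 1 or 3 or WT replicate 3), and the inner medulla list 2 rises (1 whichever library was left out) and 3 falls of 12.

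Several of the largest falls lay outside these lists. Klk1c9, a glandular kallikrein protease, read 83.6, 94.6 and 93.4 FPKM in WT and 1.72, 15.5 and 6.97 in Homo (-3.69 ± 0.40 log2; limma adjusted p = 3.72e-09). Klk1c2, of the same family, had no read in Homo and 3.75, 6.05 and 6.36 FPKM in WT, at least 68.4-fold lower. The Klk1c genes are near-identical copies, so how their reads divide is uncertain. Cyp1a1, a monooxygenase induced through the aryl hydrocarbon receptor, read 11.5, 12.4 and 10.2 FPKM in WT and 0.230, 0.341 and 0.970 in Homo (-3.06 ± 0.36 log2; limma adjusted p = 1.69e-08). Aadac, an arylacetamide deacetylase, fell from 13.5 to 15.5 FPKM to 1.02 to 2.57, and Oacyl, an acyltransferase-like gene, from 14.2 to 16.0 to 0.996 to 2.37. Prima1, the membrane anchor of acetylcholinesterase, read 28.4, 26.5 and 59.6 FPKM in WT and 4.52, 4.69 and 5.53 in Homo, and Oosp1, an oocyte-secreted protein gene, 17.4, 12.6 and 23.7 and 0.481, 4.34 and 2.83.

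The same contrast was made at PND15 in other animals (4 Homo and 4 WT), where 1479 genes were higher (9.08% of those tested) and 1223 lower (7.51%). Of the rises at PND21 47.8% were also rises at PND15, and of those at PND15 92.5% were also rises at PND21 (1368 genes). For the falls the shares were 38.7% and 90.4% (1106 genes). No gene passed in opposite directions at the 2 ages. The groups differ in size, 4 against 3, which bears on how many genes pass.

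Whether the difference itself changed with age was tested as an interaction. It lay above 0 in 251 genes (1.54% of those tested) and below 0 in 171 (1.05%), and in 2 of these 422 genes the difference was smaller in size at PND21 than at PND15. Havcr1 was 1.21 ± 0.397 FPKM in WT and 52.6 ± 29.4 in Homo at PND15 (SD, n = 4 and 4), a difference of 4.48 ± 0.23 log2 that grew by 1.88 ± 0.34 (limma adjusted p = 0.00129). For Reg3g the difference grew from 1.72 ± 0.16 log2 by 3.11 ± 0.25 (limma adjusted p = 2.87e-10), and for Fgg from 3.41 ± 0.25 by 2.48 ± 0.39 (limma adjusted p = 0.000152). Falls also deepened: Egf went from 38.9 ± 14.2 FPKM in WT and 13.5 ± 5.97 in Homo at PND15 to the levels above, with an interaction of -2.09 ± 0.43 log2 (limma adjusted p = 0.0042). Lcn2 and Clu gave interactions of 1.24 ± 0.40 and 1.02 ± 0.33 log2 that did not pass (limma adjusted p = 0.0929 and 0.0929). Lcn2 passed without PND15_Homo replicate 1 or 3 (limma adjusted p = 0.0397 and 0.0316) and Clu without PND15_Homo replicate 1 (5.1e-05), and both passed with array weights (0.035 and 0.0126). Havcr1 and Fgg did not pass with voom, nor Havcr1 with a pseudocount of 0.1, nor Havcr1 and Egf with only these 4 groups in the fit, nor Egf with only the 2 ages in it (0.0567). The count moved with single libraries: it was 130 without PND21_Homo replicate 1, 225 and 269 without PND21_WT replicates 3 and 2, 182, 257 and 681 without PND15_Homo replicates 4, 2 and 1, and 253 without PND15_WT replicate 4.

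**Figure D5:**
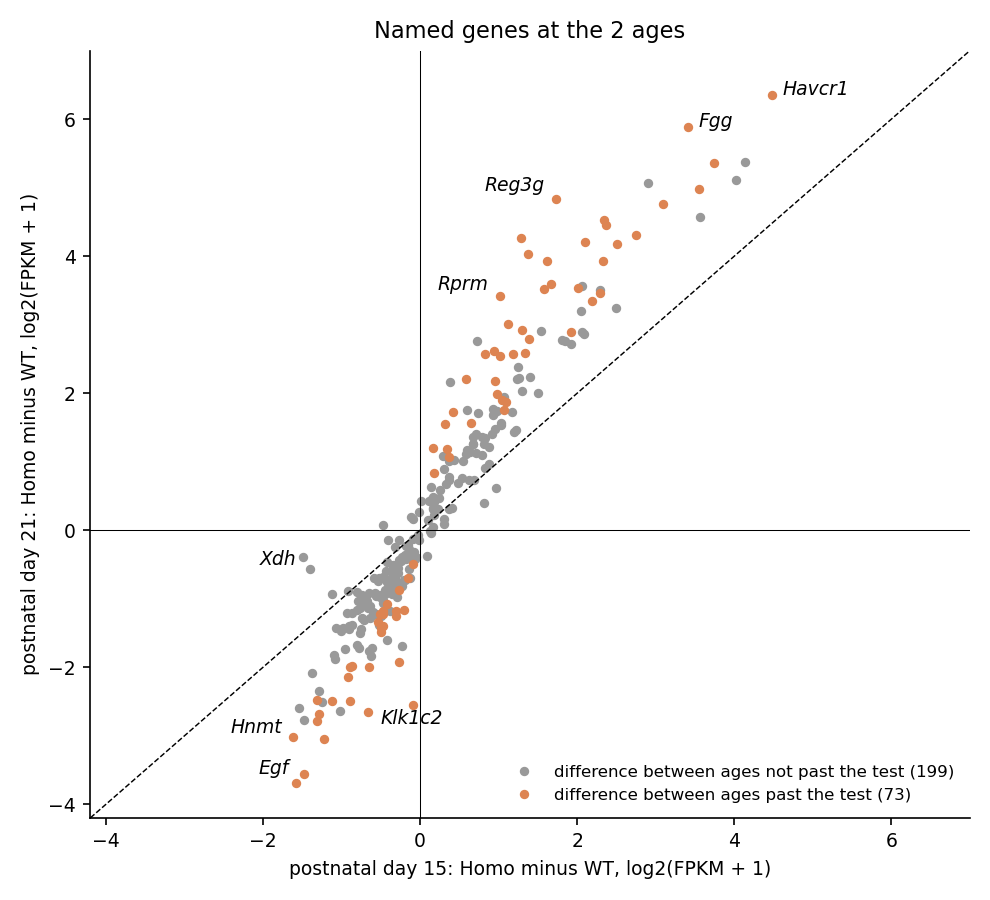
Homo minus WT difference in log2(FPKM + 1) at PND15 (horizontal) and PND21 (vertical) for 272 named genes, with the dashed line at equal differences. Most points lie farther from 0 at PND21, and for 73 of the genes (orange) the change between ages passed the test. Many of these genes were chosen by their PND21 difference or by that change, so both features partly follow from the choice. Of all genes tested, 2.59% passed the test of the change.

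The genes that rise with age were defined in Het animals, which are in neither group. Between PND15 and PND21, 114 genes rose in Het by at least 1 log2 unit with an adjusted p under 0.05. Of these, 79 (69.3%) fell and 9 (7.89%) rose in Homo against WT at PND21, with a median of -1.37 log2. Among 52 genes that fell in Het by as much, 13 (25%) were higher and 2 (3.85%) lower in Homo, with a median of 0.17 log2. The background is 17.6% in each direction.

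Between Het and WT no gene passed. Of 16283 genes 0 passed with limma (0%), and 895 had an unadjusted p under 0.05. This comparison and that of Homo share the WT libraries, so their values are set side by side only: Havcr1 differed by -0.09 ± 0.24 log2 in Het and 6.36 ± 0.26 in Homo, Egf by -0.02 ± 0.30 and -3.56 ± 0.32, and Hnmt by 0.10 ± 0.26 and -3.02 ± 0.28.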

How the data were processed

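RNA of the kidney cortex was measured in 44 poly-A libraries from male pups in 12 groups of age and genotype labels. Replicates are numbered in record order, which pairs nothing. What the authors deposited is a single FPKM table, with gene names, coordinates and lengths. Per the submitters' processing notes, the tools were HISAT2 2.0.5, featureCounts 1.5.0-p3, StringTie 1.3.3b and fastp. The build was not given in the sources used here. Directional and non-directional libraries are both described in the labels, so reads of overlapping and antisense genes cannot be told apart.

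FPKM times gene length gave whole reads in 100% of values, within 0.01 read, with a size for each library of 0.833 to 1.11 times its reads. That the deposited values carry a scaling for composition was read from this. Depth was 12686228 to 23329418 reads over the 44 libraries, and intervals and the floor of 3 reads over a group cover counting error only.

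Genes with at least 1 FPKM in 3 or more of the 44 libraries were tested (16283 of 32545; 7209 were at 0 in every library) with limma 3.58.1 (R 4.3.3, statmod 1.5.0) on log2(FPKM + 1), so fold changes of low genes are understated. The model had 12 group means, trended and robust empirical Bayes and Benjamini-Hochberg adjustment, and was run on simulated data. The simulation gave all genes the same relative spread and held no outlying library. It therefore does not show how the model behaves with a library such as Homo replicate 1. Folds are ratios of mean FPKM. Of 919 gene entries in 42 lists, 855 different genes were matched by symbol and 792 tested. The genes named are the 12 largest differences per direction that reach a mean of 5 FPKM in 1 group without overlap, the first 3 and up to 5 called genes of each list, and 6 per direction for the contrast of ages. The genes kept, lists and tests were chosen with earlier results of these data known. Alternatives were a pseudocount of 0.1, other filters, TPM, median ratios, array weights, voom, fewer libraries in the fit, a covariate that splits animal numbers at 100, and each library left out in turn. Some genes that the rule names are not reported here.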

Additional observations from a re-analysis of the deposited data

Results flagged for a closer look

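In 12 named genes the difference between Homo and WT changed between PND15 and PND21 by the limma interaction test, the 6 smallest p in each direction among genes of at least 5 FPKM in the highest of the 4 groups. Values are the PND21 difference minus the PND15 difference on the log2(FPKM + 1) scale, with the SE and the adjusted p. Of all 16283 genes tested, 1.54% lay above 0 and 1.05% below.

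Above 0 lay Reg3g with 3.11 ± 0.25 (limma adjusted p = 2.87e-10), Reg3b with 2.65 ± 0.36 (2.06e-05) and Rprm, a p53-linked cell cycle inhibitor, with 2.40 ± 0.31 (1.16e-05). Rprm read 1.497, 1.35 and 1.49 FPKM in WT and 29.7, 22.4 and 23.8 in Homo at PND21, against 2.30 ± 0.392 and 5.99 ± 2.30 at PND15 (SD, n = 4 each). Pla2g7, which inactivates platelet-activating factor and is made by macrophages, gave 1.89 ± 0.27 (5.51e-05), Fcgr2b, the inhibitory IgG receptor, 1.75 ± 0.24 (3.04e-05), and Dcdc2 1.67 ± 0.20 (5.46e-06). Dcdc2 was 17.9 ± 1.29 FPKM in WT and 36.4 ± 10.9 in Homo at PND15, and 5.59 ± 0.575 and 39.3 ± 0.715 at PND21. Its Homo means were thus similar at the 2 ages, while that of WT was lower at PND21.

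Below 0 lay Klk1c2 with -1.98 ± 0.35 (limma adjusted p = 0.0008), Gcgr, the glucagon receptor, with -1.61 ± 0.30 (0.00148), and F13b, the carrier subunit of clotting factor XIII, with -1.33 ± 0.24 (0.00129). Klk1c2 was 0.817 ± 0.956 FPKM in WT and 0.0207 ± 0.0413 in Homo at PND15 (SD, n = 4 each). At PND21 it was 5.39 ± 1.43 FPKM in WT with no read in Homo, so Homo was at or near 0 at both ages. Gcgr read 20.1, 16.6 and 21.5 FPKM in WT and 1.97, 2.702 and 3.22 in Homo at PND21, with no overlap. Cep63, a centrosome protein, gave -0.95 ± 0.13 (1.86e-05), Sdc2, the proteoglycan syndecan 2, -0.66 ± 0.12 (0.000811), and Zfp706, a zinc finger gene, -0.55 ± 0.10 (0.0015). Of the 12 genes, Fcgr2b, Klk1c2, Reg3b, Sdc2 and F13b did not pass under at least 1 alternative of fit, pseudocount or voom, and the direction of each stayed the same.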

How the results depend on the processing

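The share of genes called between Homo and WT at PND21 (35.1%) stayed within 1.5 times under each alternative run, and the count of 5721 ranged from 4139 with a mean of at least 5 FPKM to 6663 with array weights, and from 4423 to 5370 with 1 library left out. For the contrast of ages the share was 2.59% (422 genes). It was 1.05% (171) with only the ages compared, 0.583% (95) with only the groups compared, 5.31% (864) with array weights, 1.35% (143) with a mean of at least 5 FPKM, 0.989% (87 above 0 and 74 below) with a pseudocount of 0.1, 1.01% (164) with voom and 0.798% to 4.18% (130 to 681 genes) with 1 library left out, and the causes were not tested. For Xdh the difference of -0.57 log2 passed with only the ages (limma adjusted p = 0.032) or only the groups compared (0.011). Of 233 named genes called, 203 kept call and direction under every alternative and none reversed. TPM ended the call of 15, voom of 14 and leaving out Homo replicate 1 of 18. Counts of several lists changed with TPM or voom, as given beside them. No paired analysis was possible because the replicate numbers only follow the order of the records. Genes of few reads limit the depth: ratios against 0 to 3 reads are bounds or wide intervals.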
